A study of Mus musculus with 2 samples.

Results

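The regions described here are those that were wide in both replicates of a Myc-tag chromatin immunoprecipitation (ChIP-seq) from mouse corneal epithelium. They were chosen by their width in both lists: a region entered when it was wider than 104 bp in replicate 1 and overlapped by at least 1 bp a region at least 100 bp wide in replicate 2, on chromosomes 1 to 19 or X of mm9. The limits had themselves been set on the widths of these lists, so the widths and the authors' scores of the regions are given as a description, with no test. The rule found 4805 pairs, which made up 23.3% of the 20626 overlapping pairs on these chromosomes (exact 95% interval 22.7 to 23.9%). Merged, they gave 4772 regions, called wide shared regions below, of which 33 joined 2 or more pairs. They came from 4775 of the 25592 regions of replicate 1 and 4802 of the 42619 regions of replicate 2. The other overlapping pairs were narrow in both replicates (7505), narrow in replicate 1 and wide in replicate 2 (5609), or wide in replicate 1 and narrow in replicate 2 (2707).

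Both replicates belong to 1 group: P7 (postnatal day 7) K14 DN-Clim mice, in which the keratin 14 promoter, active in basal cells of stratified epithelia, drives a Myc-tagged DN-Clim protein. The corneal epithelium was released with dispase II for 2 hours at 37 °C and then fixed, and 24 µg of sonicated chromatin went into each immunoprecipitation. The series has no second genotype, input or untagged library in what was analysed here, so no background can be set beside any count. The labels do not say whether the replicates came from separate animals, nor the sex of the animals. Neither they nor the lists give read totals, which leaves the number of reads behind each region unknown.

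Clim proteins (Ldb1 and Ldb2 in the mouse) do not bind DNA themselves. They dimerise and bridge LIM-homeodomain, LMO and other DNA-bound factors, so that a Clim protein is recovered by ChIP through its partners. A dominant-negative Clim keeps the LIM-binding part and lacks the dimerisation part, and so occupies partners without joining them. The width of a called region is set by how far fragments spread around a site, by the depth of the library and by the caller. No gene names are given for the regions, because the annotation at hand is of another build than the lists.

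Wide regions of either list were found again as wide regions more often when they scored high. In replicate 1, 4775 of 9497 wide regions (50.3%, exact 95% interval 49.3 to 51.3%) had a wide partner, and 78.4% had a partner of any width. In replicate 2, 4802 of 22342 wide regions (21.5%, 20.96 to 22.04%) had a wide partner, and 46.6% had any partner. From the lowest to the highest score decile, the share with a wide partner went from 37.5% to 73.2% in replicate 1 and from 6.44% to 58.5% in replicate 2. Wide regions with no partner at all had a median score of 91.5 in replicate 1 and 60.6 in replicate 2, against 121.9 and 92.8 for those with a wide partner. The longer list of replicate 2 therefore held many wide regions of low score without a partner in the list of replicate 1. The lists had different lowest scores, 70.03 in replicate 1 and 50 in replicate 2. The lower 5 score deciles of the wide replicate 2 regions ended at 68.99, below every score of replicate 1. What this difference adds to the unequal shares was not tested.

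The widths of the wide shared regions were spread evenly up to an upper edge in replicate 1 and peaked in replicate 2. The median width was 157 bp in replicate 1, with quartiles of 131 and 184 bp, and 143 bp in replicate 2, with quartiles of 124 and 178 bp. In replicate 1, each 10-bp step from 110 to 189 bp held 443 to 478 regions, and the count then fell to 288 at 190 to 199 bp and 125 at 200 to 209 bp. In replicate 2 the steps rose to 634 regions at 130 to 139 bp and held 606 at 140 to 149 bp, before a drop to 342 at 150 to 159 bp. Only 243 pairs (5.06%) were wider than 200 bp in both replicates, and 33 (0.687%) were wider than 300 bp in both. Over the 4805 pairs the widths in the replicates had a Spearman's rho of 0.237 and a Pearson's r of 0.630, a description of values that the rule itself limits from below.

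**Figure D1:**
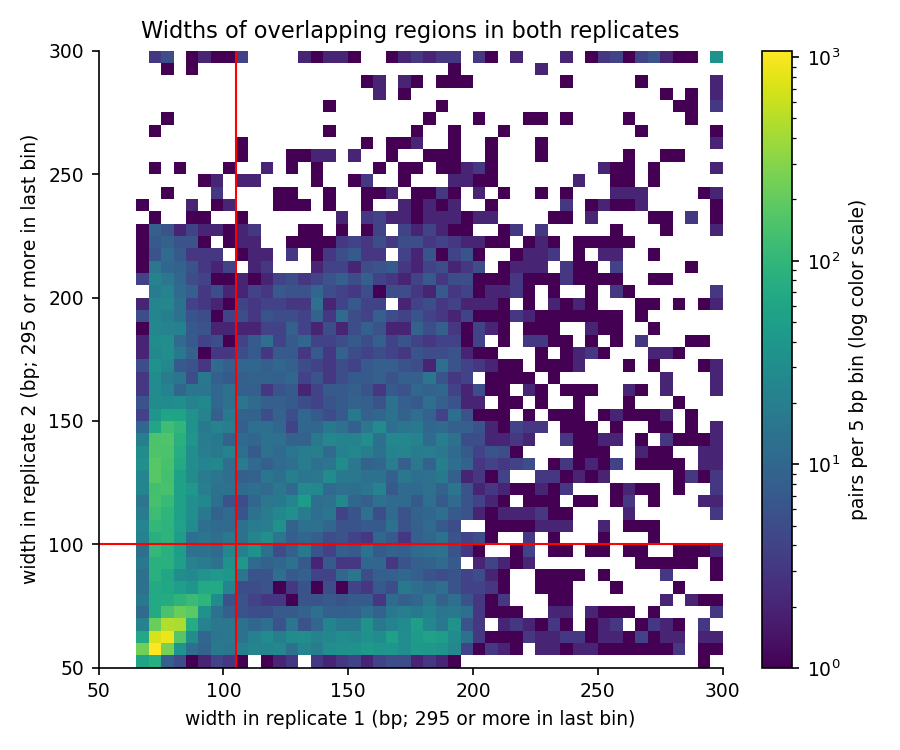
Width of each overlapping region in replicate 1 (x axis, bp) against its width in replicate 2 (y axis, bp), with color giving the number of pairs per bin on a log scale and red lines at the width limits. The 4805 pairs in the upper right quadrant are the wide shared regions, and the brightest bins hold the 7505 pairs narrow in both replicates.

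The paired regions overlap by the rule, which at most of these widths keeps their midpoints close, so the following values are a description. The median distance between midpoints was 22 bp, and it was at most 50 bp in 79.7% and at most 100 bp in 98.6% of pairs. The median overlap was 123 bp, which was 98.4% of the shorter region, and 171 pairs overlapped by less than 50% of it. The replicate 2 region lay inside the replicate 1 region in 25.3% of pairs, the reverse held in 17.7%, and replicate 1 was the wider in 59.9%. Differences of width were most often small and positive: replicate 1 was wider by 10 to 14 bp in 354 pairs and by 15 to 19 bp in 328. It was narrower by 11 to 15 bp in 130 pairs. The shift was not particular to wide pairs. The replicate 2 width minus the replicate 1 width had a median of -11 bp here and -13 bp in pairs narrow in both.

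At the limits themselves the scores changed little in replicate 2 and more in replicate 1. The 194 pairs within 5 bp inside the replicate 1 limit had a median replicate 1 score of 142.2, and the 214 pairs within 5 bp outside it had 191.4. The 202 pairs just inside the replicate 2 limit had a median replicate 2 score of 87.3, and the 225 just outside had 93.2.

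Wide shared regions were rarer on the X chromosome than on any autosome, and more so than narrow ones. X held 90 of the 4772, or 0.558 per Mb, while the autosomes ranged from 1.55 per Mb on chromosome 14 to 2.56 per Mb on chromosome 11. Its share was 0.301 times its share of the spanned length (exact 95% interval 0.242 to 0.369). The regions narrow in both replicates numbered 324 on X, 0.689 times the expected share (0.617 to 0.766). The low density of X among all shared regions was known from earlier results, so the new value is the difference between the width classes. The odds of lying on X were 0.426 times as high for wide as for narrow shared regions (exact 95% interval 0.333 to 0.541). With counts in 1 Mb windows and the spread between windows taken into the interval, the ratio was 0.424 (0.305 to 0.588). That model took the wide and narrow counts of a window as independent, although they were correlated on the autosomes (Spearman's rho 0.449). In the wide regions of replicate 1 alone, without replicate 2, X held 0.388 times its expected share and the ratio to its narrow regions was 0.778 (0.662 to 0.914), so the size of this difference rested mostly on replicate 2. In replicate 2 alone these values were 0.298 and 0.439 (0.389 to 0.495).

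**Figure D2:**
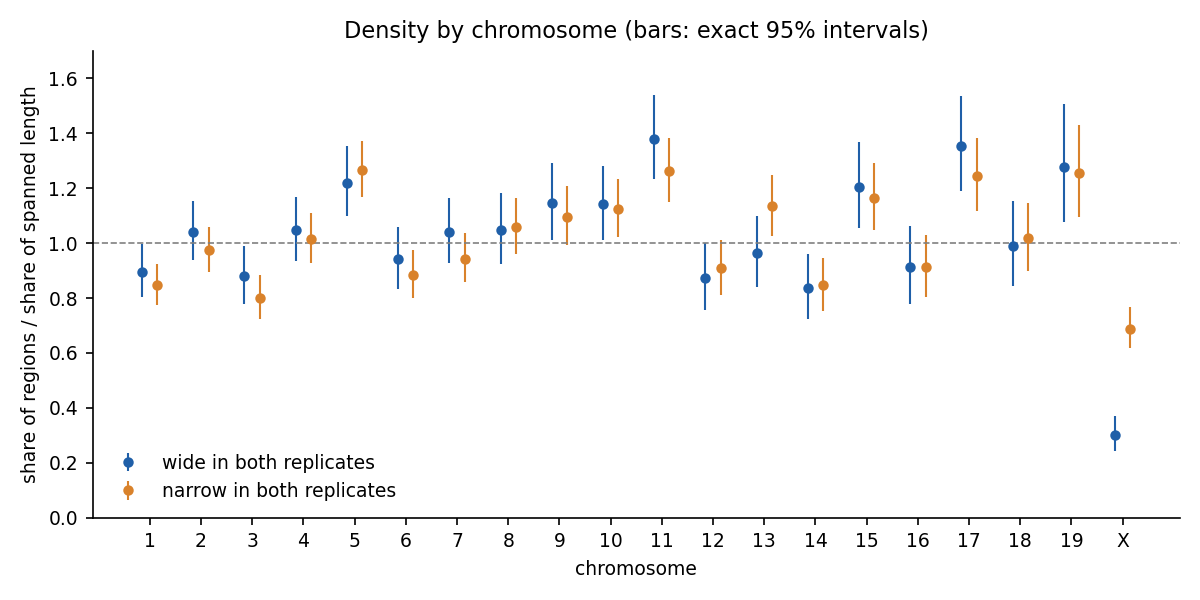
Share of the regions on each chromosome divided by the chromosome's share of the spanned length (y axis), for regions wide (blue) and narrow (orange) in both replicates, with bars giving exact 95% intervals. The classes lie near each other on the autosomes and part on X, at 0.301 and 0.689.

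The class that shares only the replicate 2 width with the wide shared regions had the same low density of X within error. Regions narrow in replicate 1 and wide in replicate 2 numbered 100 on X, 0.284 times the expected share (0.232 to 0.345). The odds ratio of the wide shared regions to them was 1.06 (0.785 to 1.43). Regions wide in replicate 1 and narrow in replicate 2 had 79 on X, 0.469 times the expected share (0.372 to 0.582), with an odds ratio of 0.635 (0.462 to 0.874, and 0.428 to 0.926 from the windows). These 3 comparisons were not adjusted for their number, and the exact intervals take regions as independent. The counts of wide shared regions in autosomal windows of 1 Mb varied 1.76 times as much as their mean, so the exact intervals are too narrow.

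Over all regions of replicate 2, the share on X fell with width in steps. It was 0.756 times the expected share for regions under 60 bp (0.671 to 0.847), 0.491 at 70 to 99 bp (0.429 to 0.559), 0.452 at 100 to 124 bp (0.388 to 0.524), 0.317 at 125 to 149 bp (0.269 to 0.370) and 0.191 at 150 to 174 bp (0.139 to 0.257). Above that it lay between 0.146 and 0.191. In replicate 1 it went from 0.608 under 70 bp (0.444 to 0.810) to 0.338 at 175 to 199 bp (0.247 to 0.451) and 0.190 at 200 to 249 bp (0.0765 to 0.389). The 401 regions of at least 250 bp went the other way there, with 16 on X and a value of 0.636 (0.366 to 1.02).

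**Figure D3:**
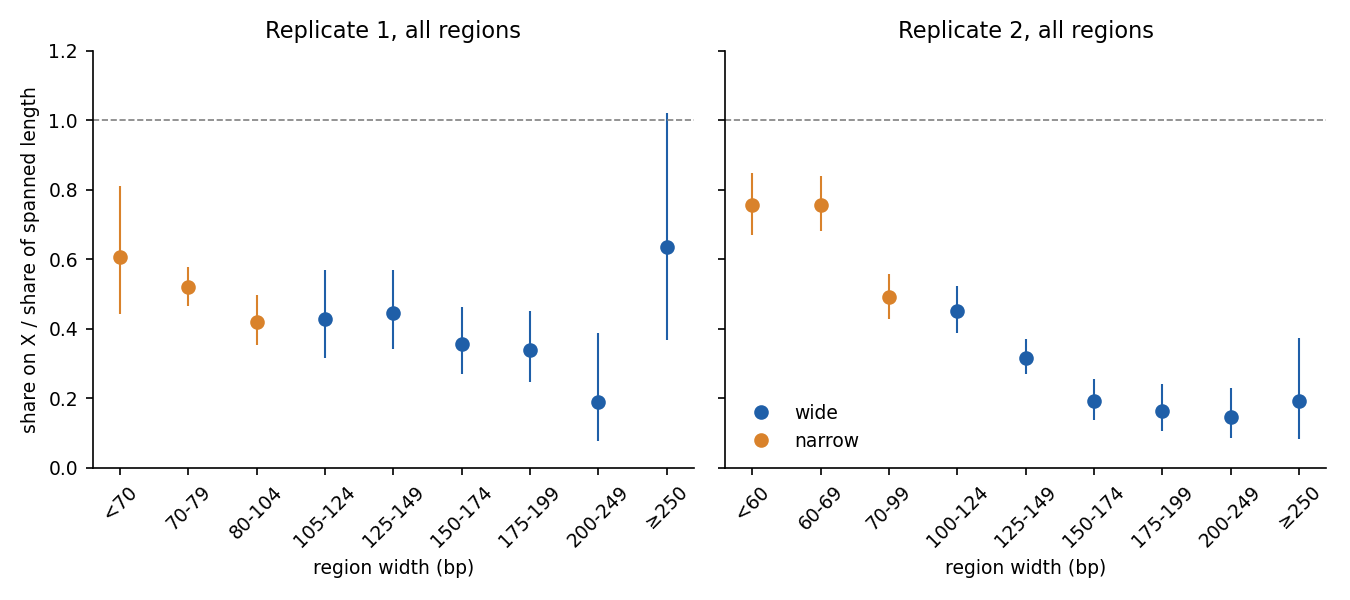
Share of regions on X divided by the share of X in the spanned length (y axis) by region width in bp (x axis), for all regions of replicate 1 (left) and replicate 2 (right), with exact 95% intervals. In replicate 2 the value falls from 0.756 to 0.146 before the widest bin. In replicate 1 it goes from 0.608 to 0.190 without a fall between 80 and 149 bp, and the widest bin is at 0.636.

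Within the wide shared regions, the low share of X showed no steady order with the score. In 4 equal classes of the pairs by mean score percentile, from low to high, X held 0.265, 0.226, 0.398 and 0.319 times its expected share, with intervals that overlap. In the narrow pairs the same division gave 0.535, 0.578, 0.723 and 0.918. On X, the 90 wide shared regions had a median score of 124.7 in replicate 1 and 102.5 in replicate 2, against 121.7 and 92.8 on the autosomes. They were slightly shorter, with a median of 145 bp in replicate 1 and 137 bp in replicate 2, against 157 and 143 bp. Of the wide replicate 1 regions, 39.0% on X (32.6 to 45.6%) and 50.6% on the autosomes (49.5 to 51.6%) had a wide partner. For the wide replicate 2 regions these shares were 21.8% (18.0 to 26.1%) and 21.5% (20.9 to 22.0%). The strongest on X lay from 84483660 to 84483796, with scores of 755.8 and 345.2, and the next from 96226133 to 96226248, with 495.6 and 215.8. Both were close to the width limit in replicate 2, at 106 and 103 bp.

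On X the wide shared regions were also unevenly placed. Of 160 windows of 1 Mb, 102 held none and 18 held 2 or more, with a highest count of 6. The same windows held on average 0.556 wide and 2.01 narrow shared regions, and 35 held no narrow one. A stretch of 13.1 Mb, from 20571686 to 33651235, had no wide shared region, the longest gap between neighbours on any chromosome analysed. The longest on an autosome was 8.21 Mb, on chromosome 7 from 38590026 to 46800575, which held 9 shared regions of other width classes.

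Among the autosomes, the density of wide shared regions was highest on chromosome 11, which had 304, or 2.56 per Mb. It was followed by chromosome 17 with 231 (2.51 per Mb), chromosome 19 with 138 (2.37 per Mb), chromosome 5 with 338 (2.26 per Mb) and chromosome 15 with 224 (2.23 per Mb). With X left out of the expectation, these 5 had intervals above 1, from 1.32 on chromosome 11 (1.18 to 1.47) to 1.149 on chromosome 15 (1.01 to 1.31). Among pairs in the upper 50% of both lists by score, and with X in the expectation, the interval of chromosome 11 included 1 (1.26, 0.968 to 1.61). Chromosomes 1, 3, 12 and 14 had intervals below 1, the lowest being 0.798 on chromosome 14 (0.690 to 0.917). Neighbours in this order overlapped in their intervals. These exact intervals take regions as independent and are too narrow, and they were not adjusted for the 19 autosomes compared. The wide shared regions made up 21.7% (chromosome 13) to 26.0% (chromosome 17) of the overlapping pairs of an autosome, and 15.3% (12.5 to 18.4%) on X. On X the pairs narrow in both replicates were correspondingly 54.5% (50.4 to 58.5%), against 35.8% (35.2 to 36.5%) over the autosomes.

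The density of wide shared regions went with protein-coding genes per Mb across the 19 autosomes, with genes counted per chromosome in the RefSeq table of GRCm38. Pearson's r was 0.729 and Spearman's rho 0.772, and r was 0.807 without chromosomes 7 and 11, the farthest from the median gene density. For regions narrow in both replicates r was 0.539 and rho 0.574, for those wide in replicate 2 only r was 0.572, and for those wide in replicate 1 only it was 0.388. These are descriptions over chromosomes that share the same libraries, and the differences between the classes were not tested. X had 5.98 genes per Mb and 0.558 wide shared regions per Mb. Chromosomes 12, 18 and 1 had 5.75, 5.82 and 6.21 genes per Mb, and 1.62, 1.84 and 1.66 wide shared regions per Mb. What gene density adds to the low density of X was not tested.

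Along the autosomes the wide shared regions were densest near the distal end. Mouse chromosomes have their centromere at the start of the coordinates, so the distal end is the end away from the centromere. When the spanned length of each autosome was cut into 10 equal parts, the first part held 349 regions, 0.745 times the mean density (exact 95% interval 0.672 to 0.824), and the last held 675, 1.44 times (1.34 to 1.55). The part before the last was at 1.26 times (1.17 to 1.36). All 19 autosomes had more wide shared regions in the last part than in the first, from 16 against 15 on chromosome 19 to 47 against 9 on chromosome 5. The last part held 1.93 times as many as the first. The parts between did not rise steadily, with 1.04 in part 4 and 0.897, 0.884 and 0.935 in parts 5 to 7, and 12 of the 19 autosomes had more in their second than in their first 5 parts. The regions narrow in both replicates had 955 in the last and 577 in the first part, 1.66 times as many, with a last-part density of 1.33 (1.25 to 1.41), an interval that overlaps that of the wide ones. The outermost 1 Mb did not share in the rise: the last 1 Mb of the autosomes held 31 wide shared regions in all, 0.841 times the mean density (0.572 to 1.19). The median scores in replicates 1 and 2 were 127.1 and 87.2 in the first part and 123.8 and 94.6 in the last, and the median merged width was 186 bp in both parts.

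**Figure D4:**
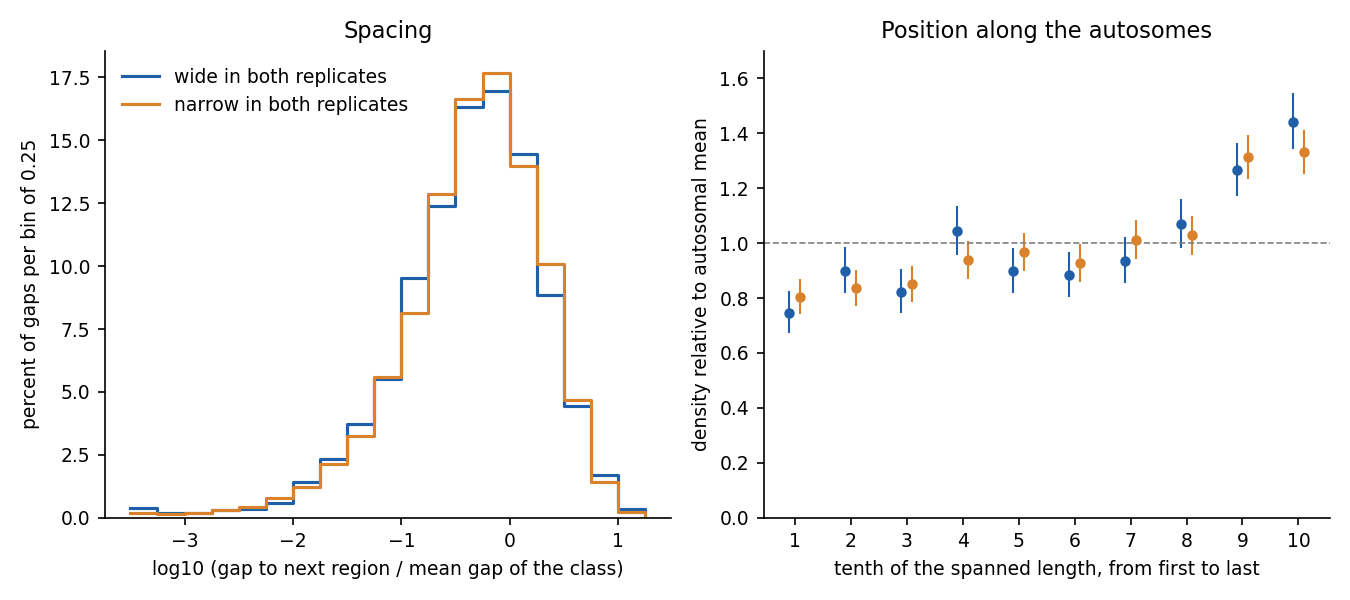
Left, percent of gaps between neighbouring regions (y axis) by the log10 of the gap over the mean gap of its class (x axis), and right, density relative to the autosomal mean (y axis) in 10 equal parts of the spanned autosomes (x axis) with exact 95% intervals, for regions wide (blue) and narrow (orange) in both replicates. The spacing curves nearly coincide, and the wide regions rise from 0.745 in the first to 1.44 in the last part.

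Wide shared regions were typically single, far from the next. The median gap between neighbours was 272.1 kb, with quartiles of 97.0 and 630.2 kb and a mean of 534.6 kb. The median was 0.509 times the mean, against 0.528 for regions narrow in both replicates, 0.497 for those wide in replicate 2 only and 0.549 for those wide in replicate 1 only. This ratio allows classes of different number to be set side by side, and it lay between 0.497 and 0.549 in these 4 classes. Gaps under 1% of the mean made up 2.02% for the wide and 2.06% for the narrow shared regions. Another wide shared region lay within 1 kb of 71 (1.49%), within 10 kb of 332 (6.96%, exact 95% interval 6.25 to 7.72%) and within 100 kb of 2085 (43.7%). The nearest region narrow in both replicates lay at a median of 88.1 kb.

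In windows of 1 Mb on the autosomes the count of wide shared regions had a mean of 1.94, a median of 1 and a maximum of 11, and 586 of 2388 windows (24.5%) had none. The excess of the variance over the mean, divided by the square of the mean, was 0.393 for the wide shared regions, 0.361 for those narrow in both, 0.420 for those wide in replicate 2 only and 0.397 for those wide in replicate 1 only. For all wide regions of replicate 2, without replicate 1, this value was 0.220, and for those of replicate 1 it was 0.398. The windows rich in wide shared regions tended to be rich in the others, with Spearman's rho of 0.449 with the narrow ones, 0.468 with those wide in replicate 2 only and 0.347 with those wide in replicate 1 only, over windows that share libraries. In windows of 100 kb, 587 held at least 2, 68 held at least 3 and none held more than 4.

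The windows with most wide shared regions differed in what else they held. The window on chromosome 15 from 80000001 to 81000000 held 11, with 3 regions narrow in both replicates and 8 of mixed width, and the wide ones lay 6.44 to 120.1 kb apart. On chromosome 10 the window from 126000001 to 127000000 also held 11, with 9 narrow and 10 mixed. A count of 10 was reached on chromosome 19 between 25000001 and 26000000, where 6 narrow ones lay. It was also reached on chromosome 8 between 26000001 and 27000000, with 8 narrow ones, and on chromosome 11 between 69000001 and 70000000, with 3. Their scores lay on both sides of the median of 122.0 over all wide pairs. The median replicate 1 score was 113.8 in the chromosome 15 window, 92.4 in that on chromosome 10, 105.7 on chromosome 8 and 118.7 on chromosome 11, and it was 166.2 in the chromosome 19 window.

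Chains of wide shared regions, with gaps of at most 10 kb, were short. Of the 4772 regions, 4440 stood alone, 153 chains had 2 members, 6 had 3 and 2 had 4. The chain on chromosome 11 from 3000194 to 3004467 began with the regions lowest in coordinate on that chromosome in either list. Its 4 members were 389 to 742 bp wide and scored 115.7 to 192.1 in replicate 1 and 51.3 to 186.6 in replicate 2. The chain on chromosome 2 from 98502355 to 98507525 had members of 409 to 1161 bp. They scored 1994.2, 530.8, 251.2 and 2431.7 in replicate 1 and 219.5, 148.8, 352.0 and 226.9 in replicate 2, so the member lowest in replicate 1 was the highest in replicate 2. Neither chain held any other shared region. Without an input library, their signal could not be set against background.

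Of the 6 chains of 3, the 3 shortest are described next. The chain on chromosome 14 from 76270705 to 76279093 opened with a region of 226 bp that scored 399.9 and 377.9, and its other members scored 140.0 and 103.9, and 84.8 and 56.6. On chromosome 17 from 84004756 to 84015020, the middle of 3 regions was the strongest in replicate 2, with 196.3 against 70.7 and 75.6 for its neighbours. In replicate 1 the last of the 3 was the strongest, with scores in order of 79.25, 225.55 and 290.96. On chromosome 6 from 52095833 to 52110455, a region of 297 bp scored 355.0 and 410.4, while its neighbours scored 85.7 and 61.7, and 102.4 and 89.2. Among the other chains of 3, one lay on chromosome 7 from 35439265 to 35454260. It scored 190.3, 115.2 and 99.4 in replicate 1, and 285.9, 59.5 and 290.4 in replicate 2. The one on chromosome 1 from 9832767 to 9848284 scored 104.96, 92.5 and 58.7 there. The one on chromosome 5 from 127214162 to 127230361 scored 228.9, 110.5 and 112.1. Across all 171 neighbours at most 10 kb apart, the scores of the neighbours had a Spearman's rho of 0.144 in replicate 1 and -0.044 in replicate 2. Regions in chains scored about as those that stood alone, with medians of 122.0 and 121.9 in replicate 1 and 100.1 and 92.5 in replicate 2.

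The scores of the wide shared regions are the authors' own values, and what they measure is not stated, so they are used for rank within a list. The median was 122.0 in replicate 1, at percentile 24.6 of that list, and 92.8 in replicate 2, at percentile 60.6. In replicate 1 the wide shared regions thus ranked low in their list, and in replicate 2 above the middle. Pairs narrow in both replicates ranked higher in both lists. Their median scores were 197.7 in replicate 1, at percentile 65.2, and 108.0 in replicate 2, at percentile 72.6. The lists differ in length and in lowest score (70.03 and 50), so these percentiles do not compare the replicates directly. Of the pairs, 1039 (21.6%) were in the upper 50% of both lists and 216 (4.50%) in the upper 10% of both. By rank, width and score were nearly unrelated in replicate 1 (Spearman's rho -0.031) and weakly related in replicate 2 (0.225). Pearson's r, which gives the extreme values more weight, was 0.481 in replicate 1 and 0.540 in replicate 2.

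A wide shared region that ranked high in replicate 1 tended to rank high in replicate 2. Spearman's rho over the 4805 pairs was 0.473 and Pearson's r 0.543, descriptions across regions that share the libraries. When pairs were divided into 5 equal classes by replicate 1 score, the median replicate 2 score rose from 71.6 to 79.6, 92.5, 106.5 and 151.6. The spread stayed wide, since the interquartile range of the top class, 98.0 to 220.7, overlapped that of the class below it, 79.9 to 146.0. Of the 100 highest pairs of replicate 1, 30 were among the 100 highest of replicate 2, and of the 500 highest, 227 (45.4%). Without the 10 highest by mean percentile, rho was 0.470 and r was 0.401.

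**Figure D5:**
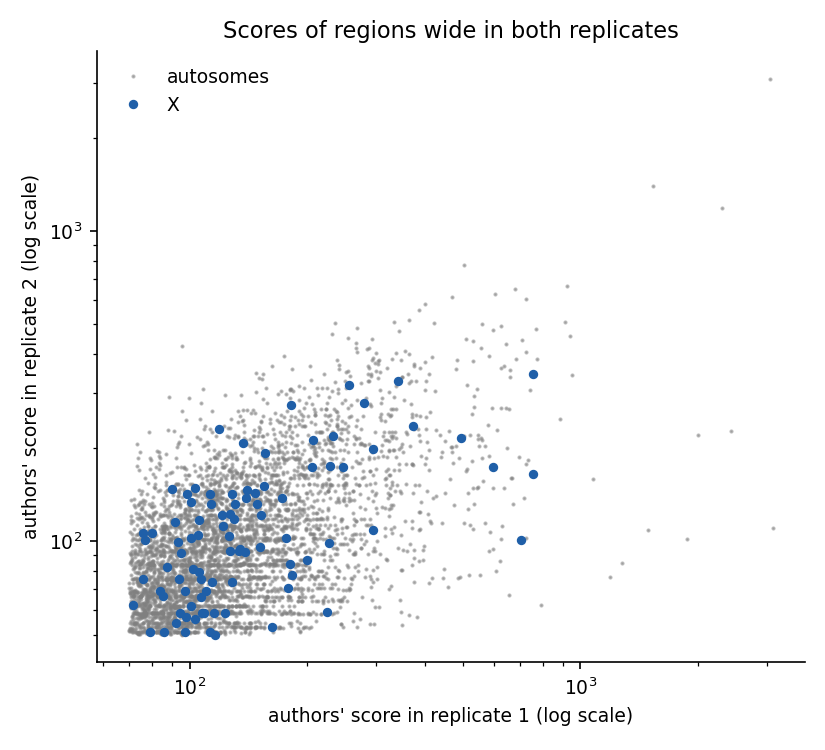
Authors' score in replicate 1 (x axis, log scale) against that in replicate 2 (y axis, log scale) for each of the 4772 wide shared regions, with autosomal regions in grey and the 90 on X in blue. Scores rise together with a broad scatter, and the regions on X lie within the cloud of the autosomal ones.

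Within the wide pairs, the agreement of scores varied by chromosome and width as follows. It ranged from a rho of 0.363 on chromosome 16 to 0.561 on chromosome 12 among the autosomes, and was 0.565 for the 91 pairs on X. By the narrower width of a pair it was 0.479 at 100 to 124 bp, 0.423 at 125 to 149 bp, 0.479 at 150 to 174 bp, 0.467 at 175 to 199 bp and 0.509 from 200 bp. The 171 pairs that overlapped by less than 50% of the shorter region had a rho of 0.279, and they also scored low, with medians of 100.6 and 67.2. In the other width classes rho was lower than the 0.473 of all wide pairs. It was 0.259 for pairs wide in replicate 2 only, 0.170 for pairs wide in replicate 1 only and 0.078 for the 7505 pairs narrow in both.

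Scores took repeated values to a different degree in the lists. Among the wide shared regions of replicate 1, 4775 regions had 3447 distinct scores, and the most frequent score was held by 12. In replicate 2, 4802 regions had 2428 distinct scores, and 58.65 alone occurred in 78. Values held by at least 10 regions covered 36.1% of them in replicate 2 and 0.942% in replicate 1. For the narrow regions the order was the reverse, with 74.3% in replicate 1 and 40.9% in replicate 2. A rank among such tied scores is coarse.

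The strongest and widest members set the upper end. The region on chromosome 17 from 39979868 to 39983732 was the widest, at 3865 bp, and the highest by mean percentile, with scores of 3045.6 and 3100, and its parts measured 3805 and 3476 bp in the replicates. The region on chromosome 9 from 35112767 to 35113197 scored higher in replicate 1, at 3100, and 110.4 in replicate 2. All others were under 2 kb. On chromosome 4 the region from 3016594 to 3018413 was 1150 bp wide in replicate 1 and 1820 bp in replicate 2, and scored 914.3 and 510.2. On chromosome 12 the region from 68160086 to 68161008 was 821 and 923 bp wide and scored 744.6 and 308.2. By contrast, the region on chromosome 13 from 120277059 to 120277946 was among the 5 widest at 888 bp but scored only 88.5 in replicate 1, where it was 377 bp wide, against 290.7 in replicate 2, where it was 859 bp wide. The 10 highest by mean percentile were 229 to 3865 bp wide after merging, all above the upper quartile of 224 bp. Towards the lower end, the region on chromosome 2 from 104142068 to 104142296 scored 679.0 and 650.8 with widths of 162 and 213 bp, and that on chromosome 12 from 25800715 to 25800981 scored 726.7 and 604.9 with 264 and 259 bp. Of the 10, 3 lay on chromosome 17 and none on X. No input library was analysed here, so the signal at the strongest and widest regions could not be set against background.

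Some pairs ranked at opposite ends of the lists. The region on chromosome 9 from 55174431 to 55174841 scored 71.0 in replicate 1, at percentile 0.358, and 262.9 in replicate 2, at percentile 99.3. It was 177 bp wide in replicate 1 and 411 bp in replicate 2. The region on chromosome 3 from 145853783 to 145854020 was the reverse, with 348.6 in replicate 1 at percentile 94.99 and 53.7 in replicate 2 at percentile 9.25. These regions were chosen after their values were seen.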

How the data were processed

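ChIP-seq regions of 2 replicates were analysed. The submitters' processing notes name Bowtie 0.12.7, bedtools 2.11.2 and the build mm9, and the region names carry the prefix of MACS, per the files. The sources used here state neither version nor thresholds nor control of the caller. The value of each region is the score as deposited by the authors. Depth is unknown, so no count test was run.

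Overlaps, merging, windows of 1 Mb and 100 kb, gaps from edge to edge and chains were computed with numpy 2.4.6, pandas 2.3.3 and scipy 1.17.1 (Python 3.11.15). Score percentiles refer to the whole list, and a merged region carries the scores of its pair with the highest mean percentile. The spanned length of a chromosome runs from its first to its last region in either list. Windows only partly inside it were left out. Shares carry exact (Clopper-Pearson) 95% intervals that cover counting error over regions only. Odds ratios carry exact conditional intervals, and the window ratio came from a Poisson model with estimated dispersion (statsmodels 0.14.6). The model did not pair the counts of both classes in the same window. Overlap finding was tested on simulated regions, and bedtools 2.31.1 gave the same 4805 pairs. Coordinates count from 1.

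The width limits, lists and tests were chosen with earlier results of these data known. Named were the 10 strongest and 5 widest regions, the 5 chains with most members (ties by shorter span), the 5 windows of 1 Mb with most members, and, added after the values were seen, the strongest on X, the highest in replicate 1, the longest empty stretches and discordant pairs. Of the 10 strongest, those printed are examples. Alternatives covered the width limits, the overlap, a score limit and each list alone. Gene location and sequence content had been planned and were not analysed here, since they need an mm9 annotation or sequence.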

Additional observations from a re-analysis of the deposited data

How the results depend on the processing

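A change of direction was looked for only in ratios compared with 1. These were the densities of X, of chromosome 11 and of the last part of the autosomes, and the odds ratio of X against narrow regions. Each value stayed on the same side of 1 under the alternatives run for it. The other results were compared by size only. With the upper 50% of each list by score, 1039 pairs were left, the variance of 1 Mb counts was 1.18 times the mean and rho was 0.326. The parts played by the fewer regions and by the narrower range of scores were not tested. Limits 10 bp higher, a common limit of 120 bp and reciprocal overlap of 50% left 4046, 3401 and 4171 pairs, and X at 0.274, 0.264 and 0.317 times its expected share. With either list alone, the number of wide regions ranged from 9497 to 22342 and the share of X from 0.298 to 0.388. The odds ratio of X against narrow regions ranged from 0.439 to 0.778 and the share of chromosome 11 from 1.30 to 1.39. The variance over the mean went from 2.53 to 2.999 and the median over the mean gap from 0.496 to 0.545. The share within 10 kb of another was 11.8 to 25.2%, and the part that the number of regions plays in it was not tested. When pairs were divided into 4 equal classes by mean score percentile, chosen after seeing the data, the inner classes gave X at 0.226 and 0.398 times its expected share. Counts that depend on the number of regions moved most. The 68 windows of 100 kb with at least 3 members became 37 with the higher limits, 26 with the common limit, 1 with the score limit, and 375 and 2159 for replicates 1 and 2 alone. The median gap of 272.1 kb became 381.2 kb with the common limit, 1227.5 kb with the score limit, and 133.8 and 62.6 kb for replicates 1 and 2 alone. The score limit also let the interval of chromosome 11 include 1 (1.26, 0.968 to 1.61), and replicate 2 alone gave a relative excess variance of 0.220 against 0.393. The alternative for gene location was not run. Depth is unknown, so a region missing from a list cannot be called absent.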

Other observations

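Outside the chromosomes described, chromosome Y had a further 17 pairs that were wide in both replicates and the mitochondrial genome had 1. Those on Y had median widths of 261 and 325 bp and scores of 72.6 to 412.0 in replicate 1 and 56.1 to 230.6 in replicate 2. The mitochondrial pair was 1646 and 1708 bp wide and scored 364.7 and 220.6.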
